A study of Homo sapiens with 10 samples.

Results

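The 10 genes described here encode the NF-kB transcription factor subunits and the proteins that hold them in check. They were chosen by symbol: NFKB1, NFKB2, REL, RELA, RELB, NFKBIA, NFKBIB, NFKBIE, TNFAIP3 and BCL3. All 10 were found among the 58735 genes of the deposited FPKM table (fragments scaled by gene length and library depth), and all 10 passed the filter on low values (at least 1 FPKM in at least 2 libraries). REL and TNFAIP3 lay below 1 FPKM in both DMSO libraries and passed through other groups. RNA had been sequenced from TPC-1, an established line of papillary thyroid carcinoma cells whose RET gene is fused to CCDC6. There were 5 groups with 2 libraries each. The DMSO group is parental TPC-1 given solvent for 24 h, and the BLU667 group is parental TPC-1 given 5 µM BLU667 (pralsetinib, which blocks the RET kinase) for 24 h. The groups BR8, BR10 and BR16 are colonies of adapted cells that grew out of TPC-1 kept in 5 µM BLU667, for more than 50 days per the sample labels and more than 5 months per the series design. Every group therefore carries the same fusion and the same parental background, and 3 colonies stand for adaptation. The labels do not say whether a colony came from a single cell. The series design calls the libraries of a group biological replicates.

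NF-kB works as dimers of 5 related subunits. RELA, RELB and REL carry an activation domain, whereas NFKB1 and NFKB2 are made as long precursors that are cut to the DNA-binding forms p50 and p52. In resting cells the inhibitors encoded by NFKBIA, NFKBIB and NFKBIE keep dimers in the cytoplasm until the IKK kinase complex marks the inhibitors for destruction. A slower branch runs through the kinase NIK, which leads to cutting of the NFKB2 precursor and frees dimers of p52 with RELB. TNFAIP3 encodes A20, a ubiquitin-editing enzyme that shuts the pathway down, and BCL3 encodes a nuclear IkB-like protein that binds p50 and p52 on DNA. NFKBIA, TNFAIP3, NFKB2 and RELB are textbook targets of NF-kB itself. RNA levels do not show whether NF-kB protein was in the nucleus.

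The kappaB consensus, the 10-base sequence that NF-kB dimers bind, was searched on both strands in the 250 bases before each start site in the RefSeq promoter table (GRCh38.p14). These windows were available for 8 of the 10 genes, and 6 of the 8 held a match in at least 1 window, against 6.28% of all 27305 genes with a window. NFKB1, NFKB2, RELA and NFKBIB had more than 1 window. Matches on either strand could overlap and were then merged. The window of NFKBIA is shown whole because NFKBIA had the largest rise of the inhibitor genes in BLU667, at chr14:35404750-35404999 on the minus strand, with the match in capitals.
NFKBIA: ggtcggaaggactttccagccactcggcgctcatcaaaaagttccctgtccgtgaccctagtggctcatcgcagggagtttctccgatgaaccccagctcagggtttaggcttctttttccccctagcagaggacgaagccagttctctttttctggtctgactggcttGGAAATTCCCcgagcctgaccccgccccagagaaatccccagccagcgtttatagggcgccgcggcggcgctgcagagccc
The match lies 81 to 72 bases before the start. For 5 other genes a stretch of 30 bases around a match is shown so that the matched letters can be compared (capitals mark the bases of the match or matches). They are on the plus strand, at chr6:137867188-137867217 for TNFAIP3, chr10:102394461-102394490 for NFKB2, chr4:102501300-102501329 for NFKB1, chr2:60881517-60881546 for REL and chr19:38899931-38899960 for NFKBIB.
TNFAIP3: ctttGGAAAGTCCCgtGGAAATCCCCgggc
NFKB2: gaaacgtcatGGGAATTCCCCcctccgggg
NFKB1: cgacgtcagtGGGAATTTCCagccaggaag
REL: cgtcagccgcGGGAAATTCCCctcccgcca
NFKBIB: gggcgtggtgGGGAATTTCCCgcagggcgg
TNFAIP3 held 2 separate matches in this stretch, and NFKB2 held further matches in this window and another. No match was found in the windows of RELA and BCL3. The start sites of these windows are those of RefSeq and can differ from the gene bounds printed below. The stretches of TNFAIP3, NFKB2 and NFKBIB lie within those bounds, and those of REL and NFKB1 reach into them. A match is a description of the sequence only.

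The libraries held 15243703 to 21904245 reads in genes, and reads in a single one of the 10 genes ranged from 53 (TNFAIP3) to 2454 (NFKB2) per library. P-values of the main fit rest on the spread between libraries of a group, pooled over the 5 groups, and not on the spread between colonies. That spread was unequal. The chi-square per degree of freedom of replicate differences, against counting error, was 24.1 in DMSO and 14.3 in BLU667. It was 8.73 in BR8, 5.59 in BR10 and 2.59 in BR16. In comparisons with DMSO the pooled spread can thus be smaller than that of DMSO itself. Among thyroid follicular markers, PAX8, FOXE1 and HHEX passed the filter, while NKX2-1, TG, TSHR and SLC5A5 stayed at or below 0.230 FPKM. None of 10 immune and none of 5 endothelial markers passed the filter, and their highest values were 0.714 and 0.890 FPKM. The summed level of 7 fibroblast markers was 3.09 to 3.34 FPKM in DMSO, 13.3 to 17.6 in BLU667, 5.67 to 7.40 in BR8, 0.763 to 0.879 in BR10 and 3.34 to 3.88 in BR16. PDGFRB carried most of the BLU667 sum (2.75 FPKM in DMSO and 13.6 in BLU667) and LUM most of the BR8 sum (0 in DMSO and 5.52 in BR8), and COL1A1 was 0.454 in DMSO, 1.39 in BLU667 and 2.14 in BR16. COL1A2 and DCN, among the same 7, were at 0 in every library. The summed level of the 5 epithelial markers was 48.9 to 62.8 FPKM in DMSO, 28.2 to 28.6 in BLU667, 46.9 to 52.5 in BR8, 45.1 to 47.8 in BR10 and 97.4 to 110 in BR16. Only 2 of these 5 passed the filter, and the others stayed at or below 0.316 FPKM in every library. The part of these marker differences in the results was not tested. Differences between libraries went along with transcript GC content: over genes, Spearman's rho was 0.61 for DMSO replicate 1 minus 2, -0.60 for BR8 minus BR16 and -0.53 for BR10 minus BR16. Of the 10 genes, 9 lie above the median GC content of 48.7% of tested genes, from 49.3% in NFKB1 to 65.4% in BCL3, and REL lies below it (40.4%).

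The 24 h comparison asked which transcripts differed under the inhibitor. The transcripts of RELB, NFKBIA, TNFAIP3, NFKB2, REL and NFKBIE rose, those of BCL3 and NFKBIB fell, and RELA and NFKB1 were not called. Thus 8 of 10 were called by limma (adjusted p below 0.05 over 13927 tested genes), where 60.2% of all tested genes were called. Higher calls made up 6 of 10, against 29% of all genes, and lower calls 2 of 10, against 31.2%. The median log2 change of the 10 was 0.52, beside -0.01 over all tested genes. With 60.2% of all tested genes called, a count of 8 says little about these genes as a group, and the values of the single genes follow. In the adapted colonies against DMSO, 7 of 10 were called (6 higher, 1 lower), where 49.2% of all genes were called, 22.9% higher and 26.3% lower. The median of the 10 was 0.77 there, beside -0.03 over all genes. Taken singly against DMSO, BR8 had 7 of 10 called higher and 3 lower (51.3% of all genes called, 24% higher and 27.3% lower). BR10 had 5 higher and 3 lower (40.8% of all genes, 19.2% and 21.5%), and BR16 7 higher and 1 lower (45.5%, 21.9% and 23.6%). These comparisons share the DMSO libraries and are not independent. REL and TNFAIP3 lay below 1 FPKM in both DMSO libraries and passed the filter through other groups, so that their direction is set in part by the filter. The 10 genes were also chosen with earlier results of these data known. The counts of higher calls and the medians are thus a description only. In bulk RNA, fewer cells of a type and less RNA per cell cannot be told apart.

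**Figure D1:**
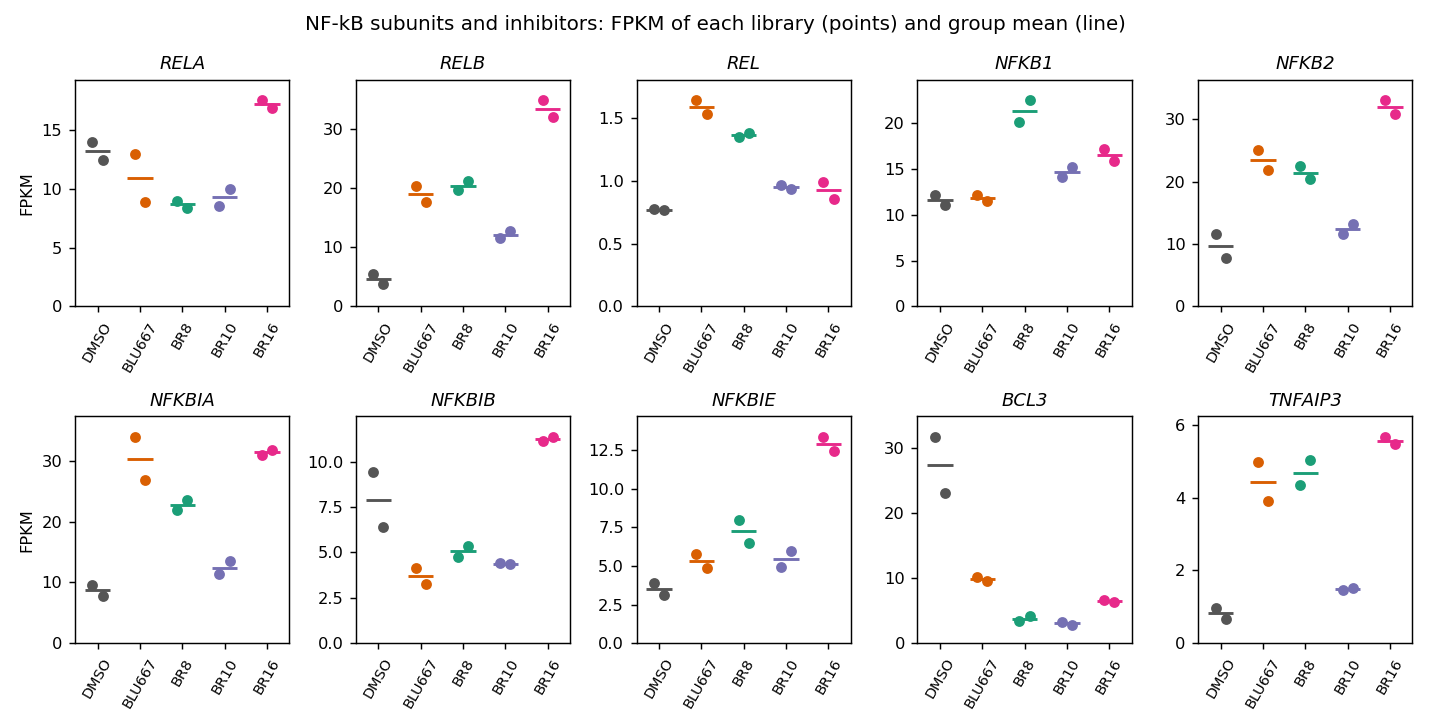
FPKM (vertical axes, each from 0) of the 10 genes in the 5 groups; points are single libraries and lines the means of 2. RELB, NFKBIA, TNFAIP3 and NFKB2 lie lowest in DMSO, are higher in BLU667 and stand lower in BR10 than in BR8 and BR16, while BCL3 is highest in DMSO.

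RELB (ENSG00000104856, GRCh38 chromosome 19, 45001430 to 45038198, plus strand) encodes the partner of p52 and had the largest rise of the 10 on the log2(FPKM + 1) scale in BLU667 and in each colony. It held 5.54 and 3.81 FPKM in DMSO and 20.3 and 17.6 FPKM in BLU667. The colonies held 19.7 and 21.2 FPKM in BR8, 11.5 and 12.7 in BR10 and 34.8 and 32.0 in BR16. Every library under the drug thus lay above both DMSO libraries, with BR16 highest and BR10 lowest among the treated groups. The log2 change, here and below on log2(FPKM + 1) ± SE of the limma fit, was 1.83 ± 0.14 in BLU667 (adjusted p = 1.51e-05). Against DMSO it was 1.93 ± 0.14 in BR8, 1.22 ± 0.14 in BR10 and 2.62 ± 0.14 in BR16 (limma adjusted p at most 0.000402). With each library's GC trend removed, BR8 and BR16 were not called apart (0.09, limma adjusted p = 0.523). The colonies together rose by 1.92 ± 0.12 (limma adjusted p = 6.29e-06), and this call held when the 3 colony means were used as replicates (adjusted p = 0.0208).

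NFKB2 (ENSG00000077150, chromosome 10, 102394110 to 102402529, plus strand), the p52 precursor gene, followed a like order. DMSO held 11.6 and 7.80 FPKM, a spread of 2.71 (SD, n = 2) around the mean of 9.71. BLU667 held 25.0 and 21.9 FPKM, BR8 22.5 and 20.4, BR10 11.6 and 13.3, and BR16 33.1 and 30.8. The lower BR10 library equalled the higher DMSO library to 3 digits, and the other drug groups lay well above both. NFKB2 rose in BLU667 (1.21 ± 0.16, limma adjusted p = 0.000299), in BR8 (1.09 ± 0.16, adjusted p = 0.000779) and in BR16 (1.64 ± 0.16, adjusted p = 9.42e-05). In BR10 it was not called (0.35 ± 0.16, limma adjusted p = 0.122), but it was called there after removal of the GC trend (0.71, adjusted p = 0.000482) and without DMSO replicate 1 (0.61, adjusted p = 0.00773). The rise over all colonies (1.03 ± 0.13, limma adjusted p = 0.000378) was lost with colony means as 3 replicates (adjusted p = 0.118).

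RELA and NFKB1 encode the partners of the classical dimer, and neither was called after 24 h. RELA (ENSG00000173039, chromosome 11, 65653596 to 65663094, minus strand) held 14.0 and 12.4 FPKM in DMSO and 13.0 and 8.90 in BLU667, which overlap. The change was -0.27 ± 0.16 (limma adjusted p = 0.165), and it was called without BLU667 replicate 1 (-0.52, adjusted p = 0.0105). The colonies differed in direction: BR8 had 8.98 and 8.43 FPKM, BR10 8.59 and 10.0, and BR16 17.6 and 16.9. RELA fell in BR8 (-0.55 ± 0.16, limma adjusted p = 0.0179) and in BR10 (-0.47 ± 0.16, adjusted p = 0.0431), and was not called in BR16 (0.36 ± 0.16, adjusted p = 0.0932). Both falls were lost with the GC trend removed (-0.20 and -0.18, limma adjusted p = 0.228 and 0.297). The BR10 call was lost under 14 of 21 other settings.

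NFKB1 (ENSG00000109320, chromosome 4, 102501329 to 102617302, plus strand) held 12.2 and 11.1 FPKM in DMSO and 12.1 and 11.6 in BLU667, and these groups overlap (0.03 ± 0.09, limma adjusted p = 0.829). It rose in the colonies, to 20.1 and 22.5 FPKM in BR8, 14.1 and 15.3 in BR10 and 17.1 and 15.8 in BR16. All 6 colony libraries lay above all 4 parental ones. Against DMSO the colonies rose by 0.53 ± 0.07 (limma adjusted p = 0.000551), and against BLU667 by 0.51 ± 0.07 (adjusted p = 0.000461). With colony means as replicates both calls were lost (adjusted p = 0.107 and 0.0789). BR8 was highest, 0.51 ± 0.09 above BR10 (limma adjusted p = 0.00503) and 0.35 ± 0.09 above BR16 (adjusted p = 0.0137), and the BR10 rise over DMSO was lost with the GC trend removed (0.18, adjusted p = 0.106).

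REL (ENSG00000162924, chromosome 2, 60881521 to 60931610, plus strand), the c-Rel gene best known from lymphocytes, was the lowest of the 10 in every group. DMSO held 0.774 and 0.768 FPKM, BLU667 1.64 and 1.53, BR8 1.35 and 1.38, BR10 0.972 and 0.941, and BR16 0.991 and 0.860. REL rose in BLU667 (0.55 ± 0.10, limma adjusted p = 0.00197) and in BR8 (0.42 ± 0.10, adjusted p = 0.00966), and was not called in BR10 or BR16. The BR8 call was lost with the GC trend removed (0.27, limma adjusted p = 0.0697), where BR16 was called (0.33, adjusted p = 0.0421). Its values are uncertain, because 43.3% of its exonic bases also belong to the exons of the noncoding gene AC010733.2 on the same strand, which is listed at 0 in every library.

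**Figure D2:**
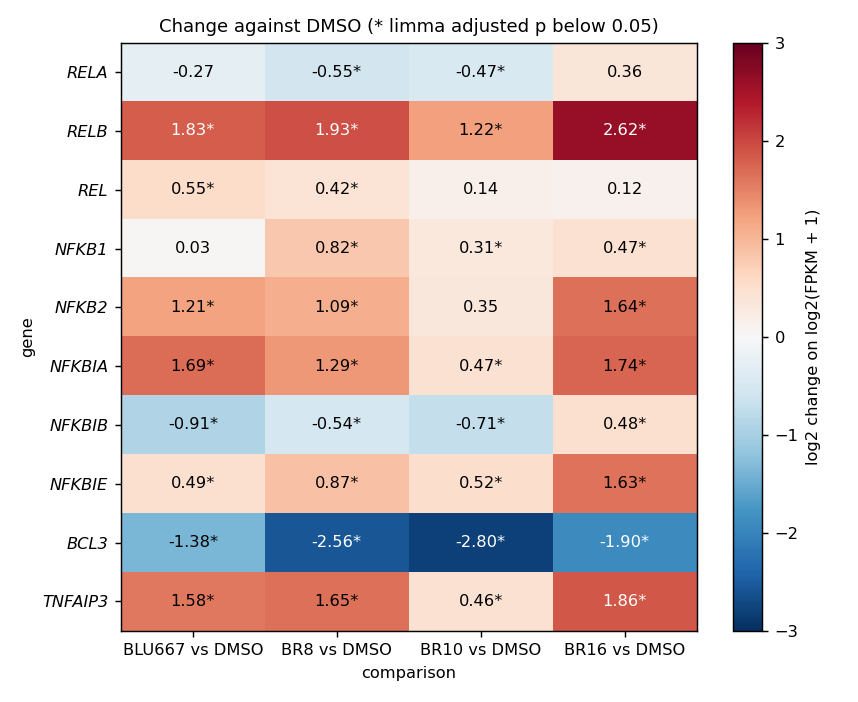
Log2 change on log2(FPKM + 1) of each gene (rows) in BLU667 and in each colony against DMSO (columns); a star marks limma adjusted p below 0.05. RELB reaches 2.62 in BR16 and BCL3 -2.80 in BR10, and the BR10 column is paler than those of BR8 and BR16 for NFKB2, NFKBIA and TNFAIP3.

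Among the inhibitors, NFKBIA (ENSG00000100906, chromosome 14, 35401511 to 35404749, minus strand), which encodes the fast-resynthesised IkB-alpha, had the largest log2 rise in BLU667, BR8 and BR16. In BR10 that of NFKBIE was slightly larger (0.52 against 0.47), and in BR16 the ratio of means to DMSO was 3.68 for NFKBIE and 3.60 for NFKBIA. It held 9.64 and 7.83 FPKM in DMSO, 33.9 and 26.8 in BLU667, 22.0 and 23.6 in BR8, 11.3 and 13.5 in BR10 and 31.0 and 31.8 in BR16. No drug-exposed library overlapped DMSO, and the order of group means was BR16, BLU667, BR8, BR10 and DMSO. The change was 1.69 ± 0.14 in BLU667 (limma adjusted p = 1.85e-05), 1.29 ± 0.14 in BR8 and 1.74 ± 0.14 in BR16 (adjusted p = 0.000135 and 2.98e-05). In BR10 it was 0.47 ± 0.14 (limma adjusted p = 0.0282), a call lost without DMSO replicate 2 (0.33, adjusted p = 0.123) or without BR10 replicate 2 (0.35, adjusted p = 0.157). The neighbours BR16 and BLU667 were not called apart (0.06 ± 0.14, limma adjusted p = 0.754).

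NFKBIB (ENSG00000104825, chromosome 19, 38899700 to 38908893, plus strand), the gene of IkB-beta, moved the other way. It held 9.42 and 6.39 FPKM in DMSO, 4.13 and 3.27 in BLU667, 4.75 and 5.36 in BR8, 4.39 and 4.36 in BR10 and 11.1 and 11.3 in BR16. All BLU667, BR8 and BR10 libraries lay below DMSO and both BR16 libraries above it. NFKBIB fell in BLU667 (-0.91 ± 0.16, limma adjusted p = 0.00131), a call kept in each of the 21 other settings run. The colony calls were less steady: with the GC trend removed, BR8 went from -0.54 to -0.05 (limma adjusted p = 0.0214 to 0.772), BR10 from -0.71 to -0.27 (adjusted p = 0.00847 to 0.110) and BR16 from 0.48 to 0.25 (adjusted p = 0.0376 to 0.122). Of its exonic bases, 1.72% are shared with SIRT2 on the opposite strand, which these non-directional libraries cannot separate.

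NFKBIE (ENSG00000146232, chromosome 6, 44258166 to 44265788, minus strand), the gene of IkB-epsilon, was called higher in BLU667 and in each colony, though not under every setting in BLU667 and BR10. DMSO held 3.87 and 3.14 FPKM, BLU667 5.77 and 4.86, BR8 7.98 and 6.49, BR10 4.94 and 5.96, and BR16 13.3 and 12.4. The rise after 24 h (0.49 ± 0.14, limma adjusted p = 0.0136) was lost without DMSO replicate 2 (adjusted p = 0.0760), without BLU667 replicate 1 (adjusted p = 0.0893) or with only these groups in the fit (adjusted p = 0.0547). The BR10 call (0.52 ± 0.14, limma adjusted p = 0.0165) was lost without DMSO replicate 2 (0.40, adjusted p = 0.0762), without BR10 replicate 2 (0.40, adjusted p = 0.101) or with only these groups in the fit (adjusted p = 0.0736). BR16 stood 1.63 ± 0.14 above DMSO (limma adjusted p = 3.78e-05) and 1.14 ± 0.14 above BLU667 (adjusted p = 0.000190), and in no other group did a library reach 8 FPKM.

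TNFAIP3 (ENSG00000118503, chromosome 6, 137867188 to 137883312, plus strand), the A20 gene, had a larger ratio of group means than RELB in BLU667. It held 0.972 and 0.664 FPKM in DMSO, 4.97 and 3.91 in BLU667, 4.34 and 5.04 in BR8, 1.46 and 1.51 in BR10 and 5.67 and 5.47 in BR16. The BLU667 mean was 5.43 times the DMSO mean (4.06 times for RELB), the BR16 mean 6.81 times and the BR10 mean 1.81 times. On the log2(FPKM + 1) scale, which understates changes of low genes, the rises were 1.58 ± 0.13 in BLU667, 1.65 ± 0.13 in BR8 and 1.86 ± 0.13 in BR16 (limma adjusted p at most 2.25e-05). BR10 rose by 0.46 ± 0.13 (limma adjusted p = 0.0216), a call lost without DMSO replicate 2 (adjusted p = 0.0924) or without either BR10 library (adjusted p = 0.0795 and 0.0854). BR8, BLU667 and BR16 were not called apart from one another in TNFAIP3.

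BCL3 (ENSG00000069399, chromosome 19, 44747705 to 44760044, plus strand) was the gene of the 10 with the highest level in DMSO, with 31.6 and 23.1 FPKM. BLU667 held 10.1 and 9.48 FPKM, BR8 3.44 and 4.10, BR10 3.21 and 2.86, and BR16 6.69 and 6.33. The groups of parental and adapted cells did not overlap, and the colonies lay below the 24 h treatment as well as below DMSO. BCL3 fell by 1.38 ± 0.14 on the log2 scale in BLU667 (limma adjusted p = 6.75e-05) and by 2.42 ± 0.12 in the colonies (adjusted p = 1.58e-06). Against BLU667 the colonies were lower by a further step (-1.04 ± 0.12, limma adjusted p = 0.000104). With colony means as replicates the colony calls held (adjusted p = 0.00417 against DMSO and 0.0320 against BLU667). The DMSO mean was 9.02 times that of BR10 and 4.20 times that of BR16.

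BCL3 had the widest range of group means of the 10 (2.80 on the log2 scale), followed by RELB (2.62). Among 11113 other tested protein-coding genes, those with the pattern most like BCL3 over the 10 libraries were ENY2 (Pearson r = 0.993), BIN3 (0.981), NEIL2 (0.972), CACNG8 (0.971) and SPDEF (0.968). These are descriptions over libraries that fall into 5 groups, with no test.

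A further comparison set the colonies against the 24 h treatment. Of the 10 genes, 6 were called by limma, where 61.1% of all tested genes were called. NFKB1, NFKBIB and NFKBIE were higher in the colonies (3 of 10, against 32.4% of all genes) and BCL3, NFKBIA and REL lower (3 of 10, against 28.7%). These counts are close to the background, and this comparison shares the BLU667 libraries with the 24 h one. NFKBIB was 0.65 ± 0.13 higher (limma adjusted p = 0.00257), NFKBIE 0.52 ± 0.11 higher (adjusted p = 0.00388), NFKBIA -0.52 ± 0.11 (adjusted p = 0.00426) and REL -0.32 ± 0.08 (adjusted p = 0.0106). RELB differed by 0.10 ± 0.12 (limma adjusted p = 0.507) and NFKB2 by -0.19 ± 0.13 (adjusted p = 0.255), averages of a low BR10 and a high BR16. RELB was called without BR10 (0.45, limma adjusted p = 0.0146) and NFKB2 without BR16 (-0.49, adjusted p = 0.0155). The NFKBIA call was lost without BR10 (-0.17, limma adjusted p = 0.257), and those of NFKBIB and NFKBIE without BR16 (0.29 and 0.21, adjusted p = 0.104 and 0.163). With colony means as 3 replicates only BCL3 stayed called, and adjusted p for NFKBIB, NFKBIE, NFKBIA and REL was 0.219, 0.254, 0.310 and 0.193. TNFAIP3 (-0.26 ± 0.10, limma adjusted p = 0.0582) was called in 10 of 25 other settings.

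Among the colonies, BR10 had the lowest RELB, NFKB2, NFKBIA and TNFAIP3 levels. A moderated F test called 9 of the 10 genes different among the colonies, where 58.1% of all tested genes were called, and REL was not called (limma adjusted p = 0.0578). The strongest was TNFAIP3 (limma adjusted p = 0.000217). BR10 lay below BR16 in 8 of 10 genes by call (43.1% of all genes called, 21.1% higher and 22% lower), including TNFAIP3 (-1.40 ± 0.13, limma adjusted p = 0.000203), RELB (-1.39 ± 0.14, adjusted p = 0.000375), NFKB2 (-1.29 ± 0.16, adjusted p = 0.000782) and NFKBIA (-1.28 ± 0.14, adjusted p = 0.000442). BR8 lay above BR10 in 5 of 10, where 22.8% of all genes were called, 11.3% higher and 11.5% lower. These were TNFAIP3 (1.19 ± 0.13, limma adjusted p = 0.000416), NFKBIA (0.83 ± 0.14, adjusted p = 0.00374), NFKB2 (0.74 ± 0.16, adjusted p = 0.0128), RELB (0.71 ± 0.14, adjusted p = 0.00922) and NFKB1.

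BR8 and BR16 differed in 9 of 10 genes by call (48.6% of all genes, 24.1% higher and 24.5% lower), with 7 lower in BR8 and NFKB1 and REL higher. Removing each library's GC trend left 1 of these 9, NFKB1 (0.24, limma adjusted p = 0.0472), with 34.8% of all genes called. RELB went from -0.68 to 0.09, NFKB2 from -0.55 to 0.08 and BCL3 from -0.66 to 0.18. With the GC trend removed, 7 of 10 genes were lower in BR10 than in BR16 (35.6% of all genes called). Of the 8 calls made on the deposited values, those of BCL3 (-0.90 to -0.10, limma adjusted p = 0.599) and RELA (-0.83 to -0.33, adjusted p = 0.0780) were lost, and NFKB1 was called only after the removal (-0.28, adjusted p = 0.0276). TNFAIP3 then stood at -1.46 (limma adjusted p = 0.000110), NFKBIA at -1.04, NFKB2 at -0.72, RELB at -0.67 and NFKBIE at -0.64 (adjusted p at most 0.00187), so that the values of NFKB2, RELB and NFKBIE were smaller than before, by more than 1.5 times. NFKBIB, also still called, went from -1.19 to -0.52 (limma adjusted p = 0.0128). Against BR8, BR10 was lower in 6 of 10 (29.9% of all genes called). The F test over the colonies then called 7 of 10 (50.2% of all genes), without RELA (limma adjusted p = 0.0773) and BCL3 (adjusted p = 0.244).

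**Figure D3:**
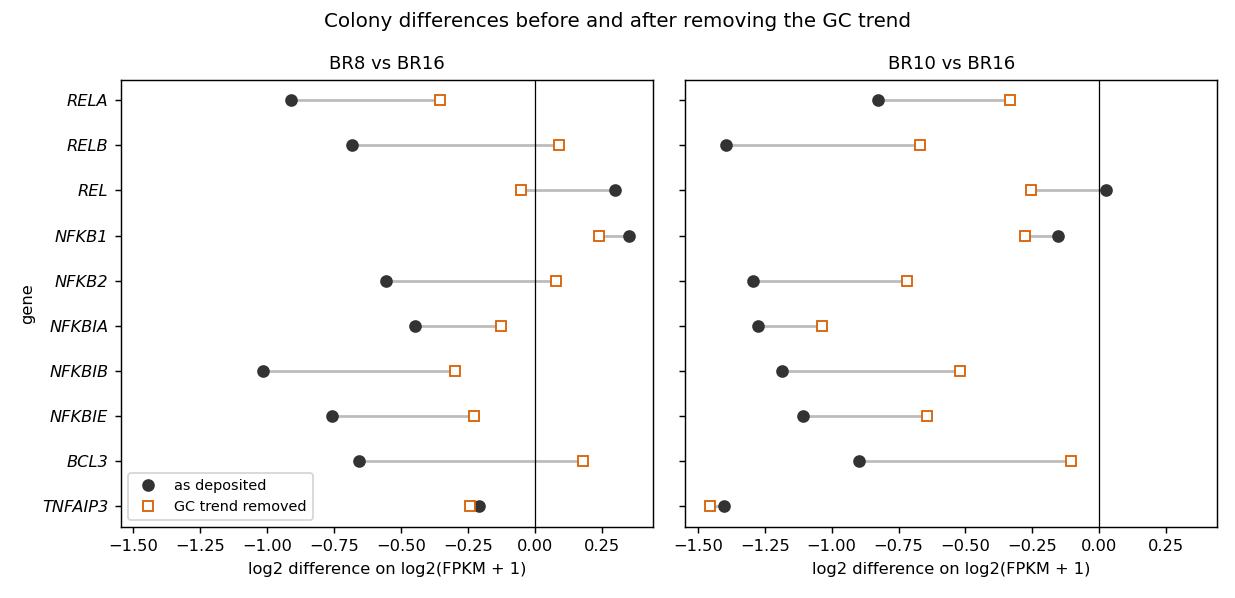
Log2 difference on log2(FPKM + 1) of each gene for BR8 against BR16 (left) and BR10 against BR16 (right), from the values as deposited (filled circles) and with each library's GC trend removed (open squares). Most squares lie near 0 in the left panel, whereas TNFAIP3 (-1.46) and NFKBIA (-1.04) stay far below 0 in the right panel.

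FPKM is per gene length, so that the subunit genes can be set side by side within a library. RELA made up 31.8% and 34.7% of the summed FPKM of the 5 subunit genes in the DMSO libraries and RELB 12.5% and 10.6%. In BLU667 RELA held 18.0% and 14.5% and RELB 28.2% and 28.6%. RELB thus lay below RELA, NFKB1 and NFKB2 in both DMSO libraries, and below NFKB2 alone in both BLU667 libraries. BR16 had the highest RELB share, 33.6% and 33.2%, and BR8 the lowest RELA share, 12.4% and 11.4%. With the GC trend removed, the log2 difference of BR8 against BR16 went from -0.68 to 0.09 for RELB. For RELA it went from -0.91 to -0.35. In BR10 NFKB1 led with 30.2% and 29.2%, and RELB held 24.6% and 24.3%. The ratio of RELB to RELA was 0.395 and 0.306 in DMSO, and between 1.27 and 2.51 in the 8 drug-exposed libraries, so that these ranges did not overlap. The ratio in BR10 was 1.34 and 1.27. The ratio of NFKB2 to NFKB1 was 0.952 and 0.705 in DMSO, 2.06 and 1.90 in BLU667 and 1.93 and 1.95 in BR16. It was 1.12 and 0.908 in BR8 and 0.823 and 0.870 in BR10. These genes differ in GC content (62.4% in NFKB2, 49.3% in NFKB1): between BR8 and BR16, the log2 difference of NFKB2 was -0.55 as deposited and 0.08 with the GC trend removed, and that of NFKB1 0.35 and 0.24. The summed FPKM of the subunit genes was 44.2 and 35.9 in DMSO and 104 and 96.5 in BR16.

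Among the classical inhibitors, NFKBIA and NFKBIB were near parity in DMSO (ratio 1.02 and 1.23) and stood at 8.22 and 8.21 in BLU667. BR8 held 4.63 and 4.40, BR10 2.58 and 3.10, and BR16 2.78 and 2.81. NFKBIA had 42.0% and 45.1% of the summed FPKM of the 3 inhibitor genes in DMSO, and 77.4% and 76.8% in BLU667. NFKBIA thus held the largest share of the 3 in every library, and the ratio to NFKBIB was highest in BLU667.

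**Figure D4:**
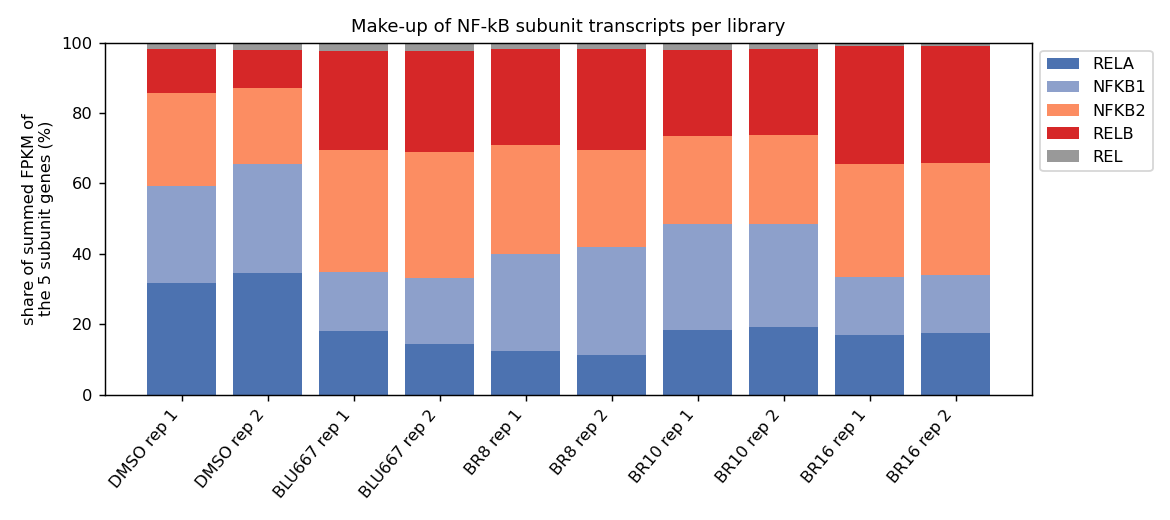
Share (percent, stacked to 100) of each of the 5 subunit genes in their summed FPKM, one bar per library. RELA takes 31.8% and 34.7% in DMSO and 11.4% to 19.2% in the other libraries, while RELB takes 12.5% and 10.6% in DMSO and 24.3% to 33.6% in the others.

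Other genes of the pathway were grouped into lists by role, and every adjusted p in the account of these lists is from limma over all tested genes. All gene counts of these lists are to be read beside the shares of all tested genes, 29% higher and 31.2% lower in BLU667 and 22.9% higher and 26.3% lower in the colonies, both against DMSO. For the colonies, these calls and p-values rest on the spread between libraries, not between colonies. With colony means as 3 replicates, 11.1% of all tested genes were called against DMSO in place of 49.2%. Of 12 ligand genes only 4 passed the filter, and TNF, LTB and TNFSF10 passed through groups where they were high. Their direction is thus largely set by the filter, so that no count of the list and no p-value of these genes is given. LTB, the lymphotoxin-beta ligand of the branch through NIK, was 0.0939 ± 0.0163 FPKM in DMSO (SD, n = 2) and 13.2 ± 4.65 in BLU667 (3.66 ± 0.22). Its colony means lay between 0.0202 and 0.486 FPKM. LTBR, the gene of its receptor, fell from 20.9 ± 3.78 FPKM in DMSO to 12.4 ± 1.45 in BLU667 (-0.70 ± 0.14, limma adjusted p = 0.00281). Whether this branch was active was not tested. TNF, the classical inducer, had 0.0161 ± 0.0228 FPKM in DMSO and 1.31 ± 0.35 in BLU667 (1.18 ± 0.14). The colonies held 8.0 ± 1.45 FPKM in BR8, 3.06 ± 0.207 in BR10 and 10.0 ± 0.90 in BR16. The change of the colonies together against DMSO was 2.86 ± 0.12. The lowest colony mean of TNF was that of BR10. 

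Of 15 tested receptors, 7 rose and 7 fell in BLU667, and 3 rose and 9 fell in the colonies (29% higher and 31.2% lower, and 22.9% and 26.3%, of all tested genes). TLR5 and TLR1 had means of 0.244 and 0.766 FPKM in DMSO and passed the filter through other groups. IL1RAP fell to 0.614 FPKM in BLU667 and passed through the others. The counts are thus set in part by the filter. The TNF receptor gene TNFRSF1A fell from 59.7 ± 6.68 to between 21.5 and 34.2 FPKM in the colonies (-1.09 ± 0.08, limma adjusted p = 1.48e-05). TNFRSF21 rose in BLU667 (2.23 ± 0.12, limma adjusted p = 1.64e-06), as did the flagellin receptor gene TLR5 (1.56 ± 0.10). TNFRSF10A, a receptor of TRAIL, fell there (-1.81 ± 0.14, limma adjusted p = 1.20e-05), as did TNFRSF12A (-1.69 ± 0.16, adjusted p = 4.11e-05).

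Among 16 adaptors of the TRAF, cIAP and TAK1 group, 8 rose and 4 fell in BLU667, and 6 rose and 4 fell in the colonies (60.2% and 49.2% of all tested genes called). TRAF1 lay below 1 FPKM in DMSO and passed the filter through other groups. The counts of higher calls are thus set in part by the filter. TRAF1, itself a known NF-kB target, went from 0.267 ± 0.0108 FPKM in DMSO to 3.96 ± 0.898 in BLU667, 7.62 ± 0.937 in BR8, 2.27 ± 0.408 in BR10 and 9.92 ± 1.01 in BR16. TRAF3, which restrains NIK, rose in BLU667 (0.80 ± 0.08, limma adjusted p = 5.58e-05), and IRAK1, a kinase of interleukin-1 and Toll-like receptors, fell (-2.26 ± 0.12, adjusted p = 2.03e-06). BIRC3 was called higher in the colonies (0.96 ± 0.19, limma adjusted p = 0.00361). It held 4.63 ± 0.417 FPKM in DMSO, 17.7 ± 0.455 in BR8, 5.20 ± 0.247 in BR10 and 10.4 ± 0.394 in BR16.

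Of the 7 tested genes of the IKK complex, NIK and related kinases, 2 rose and 3 fell in BLU667, and 1 rose and 2 fell in the colonies, which is near the share of all tested genes called (60.2% and 49.2%). IKBKG, the scaffold NEMO, fell in BLU667 (-0.82 ± 0.13, limma adjusted p = 0.000631), as did the catalytic subunit gene CHUK (-0.79 ± 0.14, adjusted p = 0.00135), while the NIK gene MAP3K14 rose (0.56 ± 0.19, adjusted p = 0.0298). IKBKB, the other catalytic subunit, was lower in the colonies (-0.70 ± 0.09, limma adjusted p = 0.000277).

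Of 10 tested genes for linear ubiquitin and its removal, 4 rose and none fell in BLU667, and 3 rose and 4 fell in the colonies (60.2% and 49.2% of all tested genes called). TNIP1, which acts with A20, rose from 21.2 ± 5.36 FPKM in DMSO to between 33.5 ± 3.10 (BR10) and 50.3 ± 0.147 (BR16) (0.98 ± 0.12, limma adjusted p = 0.000309). The nuclear IkB gene NFKBIZ rose by 1.22 ± 0.08 after 24 h (limma adjusted p = 4.70e-06) and by 0.23 ± 0.06 in the colonies (adjusted p = 0.0183). Of the 4 tested genes of its list, the other IkB proteins and nuclear cofactors, 2 rose and 1 fell in BLU667, and 2 rose and 1 fell in the colonies, beside the same shares of all genes. PDLIM2, the gene that fell, had means of 2.89 FPKM in DMSO and 0.881 in BLU667. It passed the filter through DMSO and BR16, so that its direction is set in part by the filter.

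Of 23 tested NF-kB target genes outside the 10, 12 rose and 3 fell in BLU667, and 17 rose and 1 fell in the colonies (29% higher and 31.2% lower, and 22.9% and 26.3%, of all tested genes). ICAM1, BCL2A1 and CSF2 had group means of at least 1 FPKM in BR8 and BR16 alone. IL6 and TRAF1 lay below 1 FPKM in DMSO and passed the filter through other groups. The counts of higher calls are thus set in part by the filter. The list was also chosen with earlier results of these data known, so that these counts are a description only. The list shares TRAF1, BIRC3, NFKBIZ and TNIP1 with the lists above. IL6 rose from 0.812 ± 0.0679 FPKM in DMSO to 31.6 ± 1.74 in BR8, 11.4 ± 0.472 in BR10 and 20.8 ± 2.20 in BR16 (3.51 ± 0.13 in the colonies). TNFAIP2 rose in BLU667 (2.95 ± 0.13, limma adjusted p = 7.40e-07) and CXCL8 in the colonies (2.04 ± 0.26, adjusted p = 0.000397), whereas PLAU, the urokinase gene, fell in BLU667 (-1.63 ± 0.09, adjusted p = 1.73e-06). Against the 24 h treatment, 13 of the 23 were higher and 6 lower in the colonies (32.4% and 28.7% of all tested genes).

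**Figure D5:**
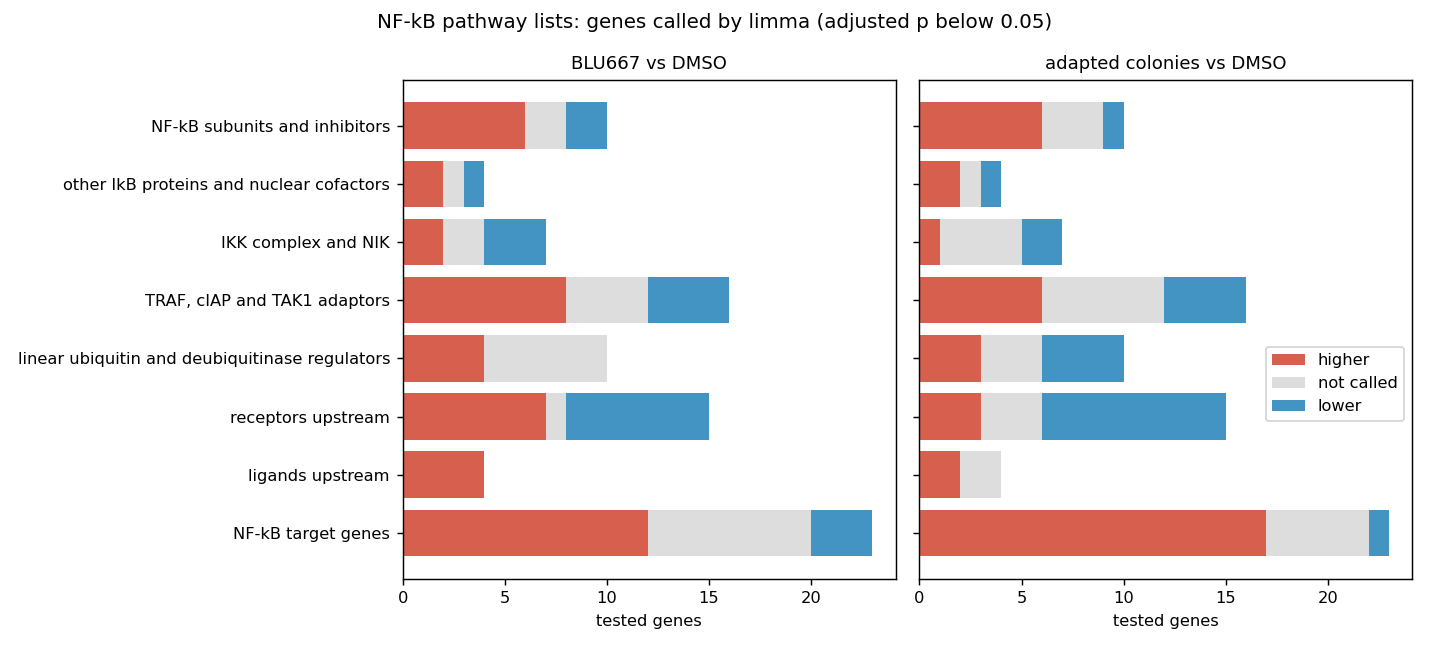
Number of tested genes (horizontal axis) called higher, not called or called lower by limma in each pathway list, for BLU667 against DMSO (left) and the adapted colonies against DMSO (right). Of 23 target genes, 12 rose in BLU667 and 17 in the colonies, and receptors fell in 7 and 9 of 15. Of all tested genes, 29% were higher and 31.2% lower in BLU667, and 22.9% and 26.3% in the colonies. The bars of the ligand list are largely set by the filter. Those of the target genes, receptors, adaptors and other IkB proteins are set in part by it. These bars are a description only.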

How the data were processed

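RNA-seq libraries of 10 TPC-1 samples were analysed, 2 for each of 5 groups. Per the labels' protocols, total RNA was depleted of globin transcripts and made into non-directional libraries. The submitters' processing notes name CASAVA, STAR 2.5, HTSeq 0.6.1, DESeq2 and GRCh38, with no annotation release named. FPKM values per gene were deposited by the authors and used unchanged. Values of log2(FPKM + 1) were fitted with limma 3.58.1 (R 4.3.3) over 5 group means with a variance trend (5 residual degrees of freedom), for the 13927 genes with at least 1 FPKM in at least 2 libraries; Benjamini-Hochberg adjusted p below 0.05 was a call. Because the table holds FPKM, no count test was the primary one. Whole reads recovered from FPKM and gene length (100% of values within 0.05 of a whole number) gave depths and a voom alternative. On simulated data for BLU667 against DMSO (13181 genes), the fit recovered 48 of 95 genes changed 2-fold and 92 of 97 changed 4-fold. The simulated libraries all had the same spread, no GC trend and few changed genes, unlike the real ones. These rates are thus not those of the real comparison. Same-numbered libraries did not deviate together (correlations -0.16 to 0.11, 1 of 10 over 0.1), so replicate numbers were not used as pairs. All 10 genes were named whatever their values. In other lists, at most 4 called genes per contrast were named, by size of log2 change. Further genes were named where the filter bore on a count, and LTBR beside its ligand gene LTB. Genes like BCL3 were named by Pearson correlation. The genes and lists were chosen with earlier results of these data known. Promoter windows are from RefSeq, GRCh38.p14.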

Additional observations from a re-analysis of the deposited data

Results flagged for a closer look

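The colonies differed from one another in 9 of the 10 genes by the moderated F test of limma, with Benjamini-Hochberg adjusted p over all tested genes, where 58.1% of all genes were called. The adjusted p was 0.000217 for TNFAIP3, 0.000537 for RELB, 0.000611 for NFKBIA, 0.000979 for NFKBIE, 0.00112 for NFKBIB and 0.00117 for NFKB2. It was 0.00280 for BCL3, 0.00295 for RELA and 0.00506 for NFKB1. With each library's GC trend removed, BCL3 (adjusted p = 0.244) and RELA (0.0773) were no longer called.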

How the results depend on the processing

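The count of the 10 genes called stayed within 1.5 times its value under 148 of 155 settings over 7 comparisons. BR10 against DMSO had 8 calls, but 5 with no filter on low values (15.9% of all genes called) and 2 when the fit held BR10 and DMSO alone (23.9%). With colony means as 3 replicates, the colonies had 2 calls in place of 7 against DMSO and 1 in place of 6 against BLU667, with 11.1% and 26.3% of all genes called. Leaving out each library in turn leaves 1 library in a group, so that counts of calls are not given for these fits. The calls moved most for BR10 against DMSO. There NFKBIA went from 0.47 to 0.33 without DMSO replicate 2 and to 0.35 without BR10 replicate 2. RELA moved further from 0 in these fits, from -0.47 to -0.55 and -0.57. With a replicate block no gene's call changed, and same-numbered libraries share only a number. Calls then numbered 8 in BLU667 against DMSO (58.5% of all genes), 7 in the colonies against DMSO (46.7%) and 6 against BLU667 (59.3%). They numbered 10 in BR8 (48.8%), 8 in BR10 (37.9%), 8 in BR16 (43%) and 9 among colonies (54.3%). The sign changed in 12 cases, all in differences that were not called. For the colonies against BLU667, RELA was -0.040 with quantile normalization, -0.20 without BLU667 replicate 2 and -0.24 without BR16; RELB was -0.019, -0.0026 and -0.25 in the same order; NFKB2 and TNFAIP3 were 0.15 and 0.17 without BR10. NFKB1 in BLU667 was -0.041 without DMSO replicate 2, -0.0081 without BLU667 replicate 1, and -0.028 with the GC trend removed, with or without the replicate block. Leaving out each library in turn, these values ran from -0.20 to 0.30 for RELA, -0.0026 to 0.19 for RELB and -0.041 to 0.091 for NFKB1. REL did not pass a filter of 5 FPKM. The cause of these changes was not tested.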
